A study of Mus musculus with 6 samples.

Results

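The Id genes Id1, Id2 and Id3 and the E protein genes Tcf3, Tcf4 and Tcf12 were followed in T cells that had expressed Foxp3 and carried either 1 or 2 conditional alleles of Dicer. Members were all probe sets whose single gene symbol in the platform annotation was one of these 6 genes, which gave 19 of the 45101 probe sets on the array. No probe set shared between several genes included one of them. CD4+YFP+ T cells were sorted from mouse lymph nodes and profiled on 6 expression arrays, 3 from Dicerwt/lox mice (Het) and 3 from Dicerlox/lox mice (KO). Both groups carried the FoxP3-GFP-hCre and ROSA26R-YFP alleles, so Cre was made under the control of Foxp3 and YFP marked every cell in which Cre had acted, including cells that may since have lost Foxp3. The Het cells therefore share the Cre and the reporter and can lose 1 Dicer copy. The labels give no age for the animals. The arrays of a group are lettered A, B and C, and nothing in the labels says that they are separate animals, so the errors and p-values below cover the spread between arrays, which may be technical.

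Id proteins are helix-loop-helix proteins without the basic region that touches DNA. They pair with E proteins, the broadly expressed basic helix-loop-helix factors, and keep them off their sites, the E-boxes of sequence CANNTG. Tcf3 encodes E2A (the E12 and E47 proteins), Tcf12 encodes HEB and Tcf4 encodes E2-2. In T cells Id2 is known for its high level in effector cells, Id3 for its level in naive, memory and follicular helper cells and for its induction by antigen receptor signals, and loss of both disturbs the maintenance of regulatory T cells.

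The marker of the lineage, Foxp3, read 9960, 8945 and 9769 on Het A to C against 5453, 9417 and 5420 on KO A to C. Cd4 read 4694 to 6651 over the 6 arrays on its brighter probe set. Dicer1 read 1059 to 1203 in Het against 1029 to 1187 in KO on 1 probe set, and 1120 to 1345 and 709 to 976 on the other, and where these probes lie relative to the deleted part was not analysed here. Median intensities of the arrays were 58.1 to 61.5, Pearson's r across tested probe sets was 0.977 to 0.986 within groups and 0.960 to 0.979 between groups. Precision is limited by there being 3 arrays in each group. In such bulk samples fewer cells of a type and less RNA per cell cannot be told apart. The 7 measured of 10 B cell markers summed to 1176, 2854 and 1230 on Het A to C against 2034, 5204 and 2183 on KO A to C, so the B arrays stood above the other arrays of their group. The 2 CD8 T cell markers did the same, with sums of 651 to 2257 in Het against 636 to 4415 in KO, as did the 5 measured of 9 myeloid markers, with 318 to 630 in Het against 540 to 1907 in KO. Among the B cell markers Cd22 was the largest part of each KO sum, at 534, 840 and 534 in Het against 1063, 2980 and 1312 in KO. Ms4a1 and Cd79b differed by log2 1.15 and 0.42, Cd79a, Blk and Ebf1 by 0.23, 0.01 and -0.08 and Fcer2a by -0.59. Of the 7 differences 5 were above 0 and 2 below, and 0 passed the test described below.

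The windows around the start sites of Id2 and Id3 are shown because these Id genes moved in opposite directions below. Both run from 250 bases before to 50 bases after the annotated start, 5′ to 3′ along the gene, from RefSeq on GRCm38.p6. Capitals mark E-boxes (CANNTG) and CCAAT boxes on either strand.
Id2, chr12:25096043-25096342, minus strand: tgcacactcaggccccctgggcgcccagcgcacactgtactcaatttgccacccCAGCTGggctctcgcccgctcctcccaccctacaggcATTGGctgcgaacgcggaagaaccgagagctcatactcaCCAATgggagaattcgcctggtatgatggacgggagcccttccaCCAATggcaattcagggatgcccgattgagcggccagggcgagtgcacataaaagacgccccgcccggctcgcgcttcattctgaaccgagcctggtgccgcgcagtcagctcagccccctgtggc
Id3, chr4:136143572-136143871, plus strand: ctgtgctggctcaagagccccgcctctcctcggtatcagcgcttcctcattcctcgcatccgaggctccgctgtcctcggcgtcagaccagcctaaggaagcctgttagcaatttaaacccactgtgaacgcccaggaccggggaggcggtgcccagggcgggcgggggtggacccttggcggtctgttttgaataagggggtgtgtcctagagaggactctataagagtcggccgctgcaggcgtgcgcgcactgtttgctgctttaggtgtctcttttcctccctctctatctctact
The Id2 window held 1 E-box, CAGCTG, starting 196 bases upstream, and 3 CCAAT boxes starting 159, 120 and 76 bases upstream. In the Id3 window neither motif was found, nor in either window the EGR motif GCGNGGGCG, the E-box variant CAGGTG, or TATAAA, on either strand. Among 32851 windows of the same length 72.3% held at least 1 CANNTG, 16.3% CAGCTG, 20.2% CAGGTG on either strand, 5.55% the EGR motif, 37.4% a CCAAT box and 13.6% TATAAA. The first share includes the E-boxes counted in the next pair. The Tcf3 window held 1 E-box (CACTTG, 54 bases upstream), and each of the 3 Tcf12 windows held at least 1. These matches describe letters in a window and are not measured binding sites.

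Of the 19 member probe sets, 17 had a log2 intensity above 4 on at least 3 arrays and entered the comparison of KO with Het (limma over 29507 probe sets, Benjamini-Hochberg adjustment over all of them). Of these 17, 2 passed an adjusted p of 0.05 as higher and 1 as lower, against 1.78% of all probe sets tested, 1.11% as higher and 0.668% as lower. The members were chosen from this same contrast of KO with Het, the family having been put forward after it was seen, so its differences are a description, the adjusted p-values only place them in the fit, and nothing is read from these counts. Groups did not overlap for 10 of the 19 probe sets, 3 higher and 7 lower in KO, against 26.2% of all probe sets tested, 11.3% as higher and 14.9% as lower.

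**Figure D1:**
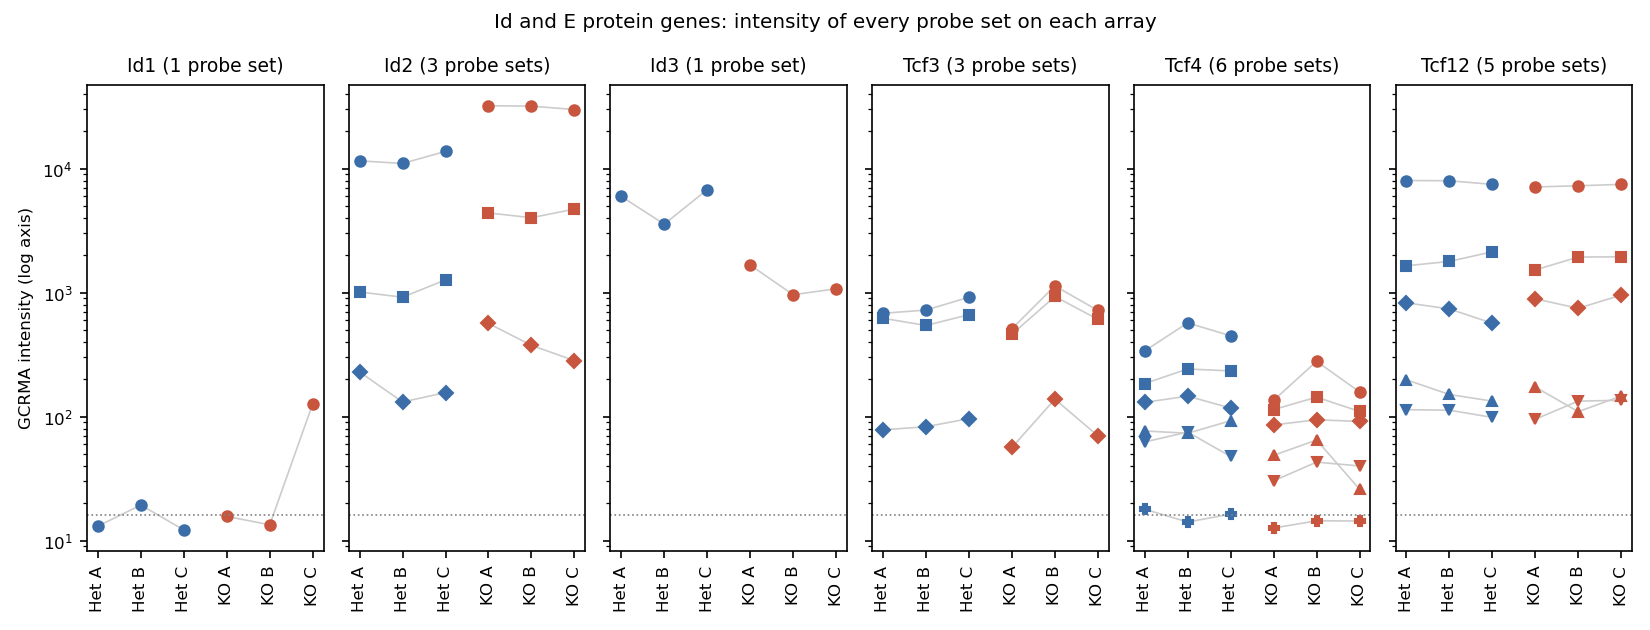
GCRMA intensity (vertical, log axis) of every probe set of the 6 genes on each array (horizontal), with Het in blue and KO in red. Each marker shape is 1 probe set, grey lines join its values within a group without implying an order, and the dotted line is a log2 value of 4. All 3 Id2 probe sets lie higher on the KO arrays, Id3 and 5 of the 6 Tcf4 probe sets lie lower, and Id1 is near the dotted line except on KO C.

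Id2 stood higher on every KO array than on any Het array on all 3 of its probe sets. The brightest (1435176_a_at) read 11548, 10996 and 13767 on Het A to C against 32140, 31889 and 29920 on KO A to C. The KO arrays lay close together and all stood far above the Het arrays. Over all 6 arrays the probe set lay at a percentile of 97.4 to 99.3 among the probe sets of an array. The Het mean was 12104 ± 1467 (SD, n = 3), the KO mean 31316 ± 1216, and the KO level 2.60-fold higher (log2 1.38 ± 0.11, SE; limma, adjusted p = 0.0191).

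The other Id2 probe sets moved the same way by different amounts. Probe set 1422537_a_at read 1011, 917.1 and 1266 in Het against 4387, 4015 and 4712 in KO. That is a 4.14-fold difference (log2 2.05 ± 0.14, SE; limma, adjusted p = 0.0170), so the dimmer of the 2 probe sets that passed showed the larger fold. The dimmest, 1453596_at, read 228.9, 131.0 and 156.1 in Het against 563.5, 375.0 and 282.3 in KO. Its groups did not overlap either, with a log2 difference of 1.22 ± 0.32 short of the threshold (adjusted p = 0.125). These probe sets read the same RNA extracts and are not separate evidence.

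Both Id2 calls were lost in 5 of the 6 fits that left out 1 array, while the size of the difference changed little. With any 1 of Het A, Het B, Het C, KO B or KO C left out, the adjusted p of the brightest probe set was 0.0580 to 0.0877 and that of 1422537_a_at 0.0525 to 0.0877 (limma). Both calls held without KO A. The differences over all 6 fits that left out 1 array were log2 1.31 to 1.47 and 1.95 to 2.18. Without both B arrays, which carried the most B cell, CD8 T cell and myeloid signal of their groups, they were log2 1.30 and 2.01 (adjusted p = 0.146 and 0.140, limma).

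Id3 stood lower on every KO array. Its only probe set, 1416630_at, read 5960, 3561 and 6766 on Het A to C against 1667, 960.2 and 1073 on KO A to C. The lowest Het array, Het B, was still above the highest KO array, KO A. The mean went from 5429 ± 1667 to 1233 ± 380 (SD, n = 3), 4.37-fold lower in KO, and limma gave log2 -2.13 ± 0.32 (SE, adjusted p = 0.0453).

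The Id3 call was close to the threshold. It was lost with any 1 array left out, at log2 differences of -2.41 to -1.94 (limma, adjusted p = 0.0670 to 0.153), and with no filter on dim probe sets, where the adjusted p was 0.0637. Without both B arrays the difference was log2 -2.25 (adjusted p = 0.146, limma).

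Id1 was near the floor of the arrays. The Het arrays read 13.05, 19.31 and 12.18, KO A and KO B read 15.65 and 13.39, and KO C read 126.9. KO C alone stood apart, the groups overlapped, and with a log2 above 4 on only 2 arrays the probe set was not tested.

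Set against their own Het means, Id2 and Id3 parted on every KO array. On the log2 scale Id2 was shifted by 1.42, 1.40 and 1.31 and Id3 by -1.65, -2.45 and -2.29 on KO A, B and C. The log2 ratio of the brightest Id2 probe set to Id3, centred on its Het mean, was -0.25, 0.42 and -0.18 in Het against 3.07, 3.85 and 3.60 in KO. The change of this ratio was 3.51, with an SD of 0.37 in Het and 0.40 in KO. This compares the changes of the probe sets within an array and says nothing of how much of each RNA was present.

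**Figure D2:**
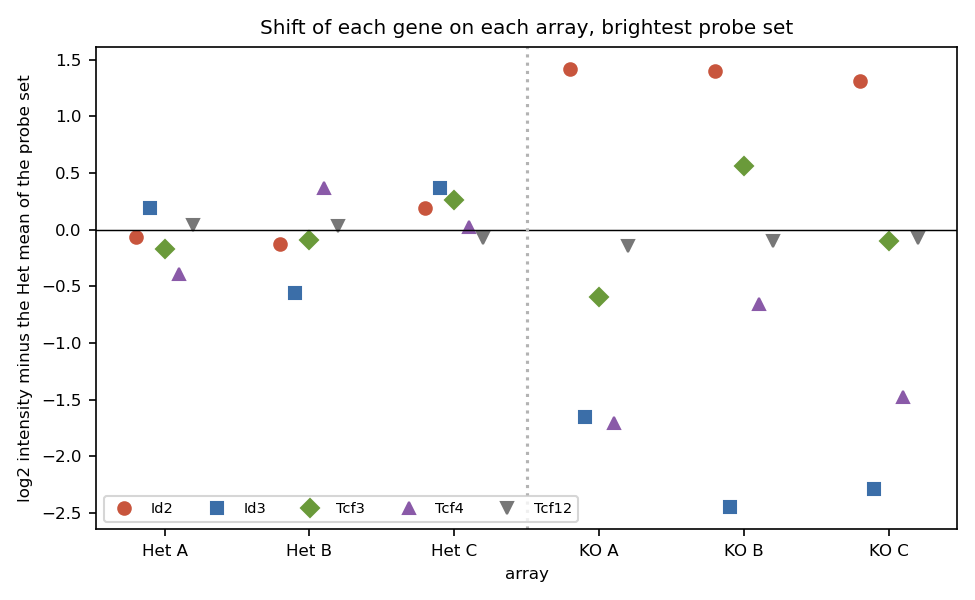
Log2 intensity minus the Het mean of the same probe set (vertical) on each of the 6 arrays (horizontal), for the brightest probe set of Id2, Id3, Tcf3, Tcf4 and Tcf12. On the KO arrays Id2 lies at 1.31 to 1.42 and Id3 at -2.45 to -1.65, while Tcf12 stays within -0.14 to 0.04 on all 6 and Tcf3 is highest on KO B.

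Tcf4, the gene of the E protein E2-2, read lower in KO on its 5 tested probe sets, none of which passed. Its brightest probe set, 1434148_at, read 338.0, 569.1 and 448.1 on Het A to C against 135.0, 278.9 and 157.9 on KO A to C. Het B and KO B were the highest of their groups, and the groups did not overlap. The log2 difference was -1.29 ± 0.33 (SE; limma, adjusted p = 0.120).

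The next probe set, 1416723_at, read 184.5, 241.9 and 233.3 in Het against 113.8, 143.3 and 109.9 in KO. Its log2 difference was -0.85 ± 0.16 (SE; limma, adjusted p = 0.0661). It is the Tcf4 probe set nearest to the threshold and passed under array weights, at log2 -0.89 and adjusted p = 0.0431 (limma). Probe set 1434149_at read 130.1, 146.0 and 117.2 in Het against 85.53, 94.20 and 91.32 in KO, with log2 -0.53 ± 0.11 (limma, adjusted p = 0.0748).

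The remaining Tcf4 probe sets lay near or below the median of the arrays. Probe set 1424089_a_at gave log2 -0.89 (limma, adjusted p = 0.247), and 1416724_x_at, a class of probe set whose probes may also match other transcripts, gave -0.70 (adjusted p = 0.168). The faintest, 1416725_at, read 14.10 to 17.88 in Het and 12.61 to 14.42 in KO, with overlapping groups, and was not tested. Groups did not overlap for the 5 that were tested, against 14.9% of all probe sets as lower, and all 5 had an unadjusted p under 0.05 (limma, 0 past the adjusted threshold). They read the same transcripts of the same samples, so 5 probe sets are not 5 observations.

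Tcf4 is best known as the lineage factor of plasmacytoid dendritic cells, so their markers are given beside it. Of 10 measured markers 0 were higher and 1 was lower by limma (2 higher and 2 lower where p was under 0.05 without adjustment). Tlr7, a receptor for single-stranded RNA, fell from 353, 245 and 272 in Het to 90.3, 101 and 110 in KO, lower by limma at log2 -1.51 ± 0.16 (SE, adjusted p = 0.0253). Its other probe sets gave log2 -0.76 and -0.71 (adjusted p = 0.199 and 0.189, limma), neither past the threshold. Pacsin1 was also lower, at log2 -0.67 (limma, adjusted p = 0.111). Ly6d and Irf8 were higher, at log2 2.38 and 0.97 (limma, adjusted p = 0.193 and 0.145), and the groups overlapped for none of these 3 genes. Of the 10 differences 3 were above 0 and 7 below. Siglech, a defining surface marker of these cells, read 22.3 to 37.3, below the median of every array. The marker sums were 6007 to 6848 in Het against 5715 to 7796 in KO, and their groups overlapped.

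Tcf3, the gene of E2A, did not separate the groups. Its brightest probe set, 1426297_at, read 680.2, 722.4 and 916.5 on Het A to C against 510.2, 1131 and 717.2 on KO A to C. KO A was the lowest and KO B the highest of all 6 arrays. The same order of KO arrays held for 1427764_a_at, with 620.3, 542.4 and 662.8 in Het against 460.8, 929.5 and 608.1 in KO.

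The 3 Tcf3 probe sets gave log2 differences of -0.04, 0.07 and -0.06 with SEs of 0.27 to 0.34 (limma, adjusted p = 0.903 to 0.956; 0 at an unadjusted p under 0.05). The sign turned in several of the fits with an array left out. Without both B arrays they were -0.38, -0.28 and -0.47. KO B also had the highest sums of B cell, CD8 T cell and myeloid markers, and their part in its Tcf3 value was not tested.

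Tcf12, the gene of HEB, differed little between the groups. Its main probe set, 1427670_a_at, read 8013, 7973 and 7460 in Het against 7108, 7266 and 7458 in KO. The groups were separated by the gap between Het C and KO C alone, and the log2 difference was -0.10 ± 0.07 (SE; limma, adjusted p = 0.516). The mean was 7815 ± 308 in Het and 7277 ± 175 in KO (SD, n = 3).

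The other 4 Tcf12 probe sets had overlapping groups and differences on both sides of 0. They ranged from log2 -0.17 for 1439619_at to 0.29 for 1421908_a_at, which read 826.2, 737.8 and 565.8 in Het against 889.2, 747.0 and 953.3 in KO (limma, adjusted p = 0.436; for all 5 probe sets 0 at an unadjusted p under 0.05). Probe set 1439209_at read 1522 to 2132 on the 6 arrays. Among the E protein genes the values thus ran from Tcf4, lower in KO on every tested probe set, to Tcf3 and Tcf12, for which the probe sets gave both signs. The difference between these genes was not tested.

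**Figure D3:**
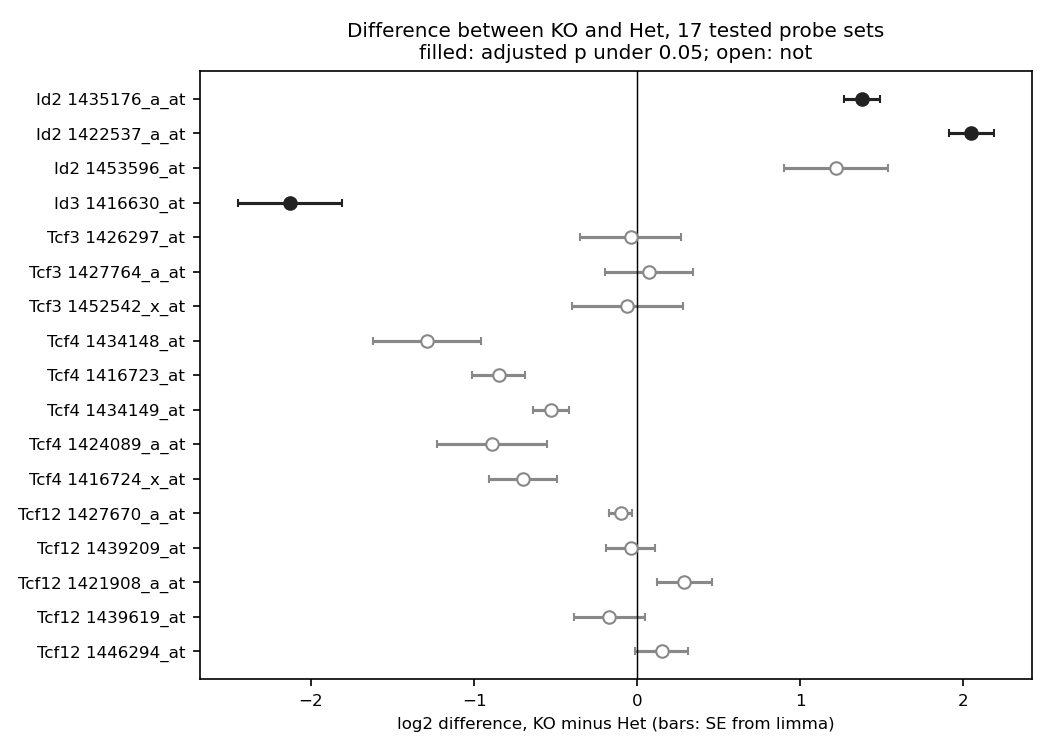
Log2 difference of KO minus Het (horizontal) with its SE from limma for each of the 17 tested probe sets (vertical), filled where the adjusted p is under 0.05 and open otherwise. The filled points are 2 Id2 probe sets at 1.38 and 2.05 and Id3 at -2.13, the 5 Tcf4 points lie between -1.29 and -0.53, and the Tcf3 and Tcf12 points lie between -0.17 and 0.29.

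Among all measured genes with an SD of at least 0.5 on the log2 scale, those whose pattern over the 6 arrays was most like that of Id2 were Adam9 (Pearson's r = 0.998), Sgk1 (0.991), Ifitm3 (0.990) and Enah (0.989). Adam9, the gene of a membrane protease, read 579, 499 and 922 in Het against 8028, 6240 and 5956 in KO. Sgk1, a kinase induced by serum and glucocorticoids, read 2709 to 3388 in Het against 10647 to 12300 in KO. Most like Id3 were Egr2 (r = 0.996), Adamts6 (0.994), Arhgap29 (0.991) and Rpl7l1 (0.989). Egr2 read 12979, 10506 and 14845 in Het against 6564, 5239 and 5829 in KO, with Het B the lowest Het array and KO A the highest KO array, as for Id3. Because Egr2 was picked by this likeness, the shared order is no further support. Such correlations over 6 arrays in 2 separated groups are common: of 1447 genes compared, 212 reached r = 0.9 with Id2 and 91 with Id3.

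Further genes of the pathway were taken from lists, with 1 probe set per gene. Over all 13280 genes 2.33% passed, 1.37% as higher and 0.956% as lower, and the median log2 difference was -0.031. Of other helix-loop-helix genes 0 of 23 measured passed (limma; 4 higher and 1 lower where p was under 0.05 without adjustment), with a median of 0.10. Nearest were Mxd1 and Mxd4, which encode partners of Max that oppose Myc. Mxd1 read 1481, 1182 and 2542 in Het against 3905, 4458 and 7443 in KO (log2 1.62; limma, adjusted p = 0.0958). Mxd4 read 7400, 6266 and 6141 in Het against 4551, 2952 and 4338 in KO (log2 -0.76, adjusted p = 0.116). Myc itself gave log2 0.23 (adjusted p = 0.650), and the remaining Id gene, Id4, read 3.39 to 17.6 on its 3 probe sets and was not tested.

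The next list held cofactors of E proteins and genes that control the turnover of Id and E proteins. Of its 15 measured genes 2 passed as higher and 0 as lower (limma, median log2 0.09). Without adjustment, 3 were higher and 1 lower at a p under 0.05, and 9 differences were above 0 and 6 below. Kat2b, the acetyltransferase PCAF, read 8321, 8794 and 8011 in Het against 14504, 15231 and 15182 in KO, a 1.79-fold rise (log2 0.84 ± 0.08, SE; limma, adjusted p = 0.0222). Its other probe sets gave log2 1.42 and -0.08, neither past the threshold. Skp2, a ubiquitin ligase subunit that also marks cycling cells, rose from 272, 436 and 554 to 1731, 2110 and 1374 (log2 2.08, adjusted p = 0.0424). Of its other probe sets 2 passed too, at log2 1.95 and 1.66, while those at 1.85, 1.68 and -0.02 did not. The acetyltransferase genes Ep300 and Crebbp gave log2 -0.10 and -0.03, and Usp1, a deubiquitinase that acts on Id proteins, 0.19, none past the test.

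Reported inducers of Id genes moved in both directions. Of 19 measured, 1 passed as higher and 2 as lower (limma), with a median log2 of 0.00. At an unadjusted p under 0.05, 5 were higher and 3 lower. Egr2 and Egr3, antigen receptor induced factors known to switch on Id3, fell, and their part in the Id3 values was not tested. Egr2 gave log2 -1.11 (limma, adjusted p = 0.0424), and its other probe set -0.77 (adjusted p = 0.0527). Egr3 read 9509, 9465 and 10113 in Het against 6397, 5734 and 6541 in KO, lower at log2 -0.64 ± 0.09 (SE; adjusted p = 0.0373). Its other probe set, near the floor at 15.8 to 21.0, gave -0.20 (limma, adjusted p = 0.34). Egr1 overlapped between the groups, at 5376 to 7823 in Het against 3482 to 9602 in KO. Tbx21, the gene of T-bet, rose from 383, 565 and 454 to 1698, 2925 and 1668 (log2 2.13, adjusted p = 0.0317). Nfil3 and Stat3 were higher without overlap of the groups, at log2 1.65 and 0.63, but did not pass (limma, adjusted p = 0.0909 and 0.0587). The other Stat3 probe sets gave log2 0.30 to 0.49. In the BMP and TGF-beta arm, which signals to Id genes through Smad factors, Smad1, Smad4 and Smad5 gave log2 -0.05, -0.17 and 0.17 and Tgfbr2 0.52 (adjusted p = 0.0785), none past the test. Bmpr2, a BMP receptor, gave log2 -0.26 (adjusted p = 0.214), while a dimmer probe set of it passed at -1.43 (adjusted p = 0.0424, limma).

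Of 14 measured E protein target genes from reports 2 passed as higher and 0 as lower (limma), and the median log2 was 0.31. At an unadjusted p under 0.05, 7 were higher and 1 lower, and 10 differences were above 0 and 4 below. Socs3, an inhibitor of cytokine signals, rose from 6035, 4432 and 6137 to 17897, 21265 and 24964 (log2 1.95 ± 0.18, SE; limma, adjusted p = 0.0222). Cdkn1a, which encodes p21, a brake on the cell cycle, rose from 131, 237 and 180 to 661, 646 and 1017 (log2 2.09, adjusted p = 0.0369). Its other probe set gave log2 1.91 and just missed the threshold (limma, adjusted p = 0.0501). Il7r, the interleukin 7 receptor, gave log2 1.26 (adjusted p = 0.0737), Cdk6 1.31 (adjusted p = 0.0592) and Foxo1 -0.45 (adjusted p = 0.0605). The thymic targets Rag1, Rag2 and Dntt read from 6.44 upward, below the filter, and were not tested.

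Genes linked to Id2 in effector T cells had the highest median of the lists, log2 1.29, with 5 of 12 measured genes higher and 0 lower and all 12 differences above 0. Gzmb, the gene of granzyme B, rose from 641, 1509 and 1067 to 14809, 10527 and 24916 (log2 3.96; limma, adjusted p = 0.0253). Ifng, which encodes interferon gamma, rose from 241, 204 and 175 to 663, 751 and 1104 (4.0-fold, adjusted p = 0.0263), and Tbx21 and Gzma passed too. Gzma read 10.6, 17.2 and 26.4 in Het, near the floor, against 959, 6859 and 20718 in KO. Zeb2, a transcriptional repressor found in late effector cells, was the fifth. It read 12.6 to 15.4 in Het against 39.7 to 79.9 in KO (log2 1.93, limma, adjusted p = 0.0413), while its other probe set gave -0.02. All Het values of Zeb2 lay below the filter of log2 4. It entered the test only through the KO arrays, where it was high, so nothing is read from its call. Klrg1 (log2 1.19, adjusted p = 0.148) and Prdm1 (0.77, adjusted p = 0.172) did not pass. The increases of Gzma, Gzmb, Ifng and Tbx21 were known when this list was drawn up, so its counts are not separate support. NK and innate lymphoid cells also use Id2, and the 4 measured of their 9 markers summed to 1946 to 3109 in Het against 2525 to 6244 in KO, with the defining gene Ncr1 at 13.7 to 15.1 and not tested. The CD8 T cell marker sums were 909, 2257 and 651 on Het A to C against 670, 4415 and 636 on KO A to C. The part of either cell type in these values was not tested.

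Genes linked to Id3 and E proteins in memory and follicular T cells showed 0 of 12 measured past the test (limma; 3 higher and 1 lower where p was under 0.05 without adjustment) and a median log2 of -0.07. The largest difference was that of Eomes, a T-box factor of effector and memory cells, which read 79.4, 307 and 195 in Het against 902, 2860 and 816 in KO (log2 2.93; limma, adjusted p = 0.102). Ccr7, the lymph node homing receptor, gave log2 0.59 (adjusted p = 0.0770), both without overlap of the groups. Besides Il7r and Foxo1, Bcl6, the follicular helper factor, gave log2 -0.44 (adjusted p = 0.276) and Lef1 -0.07. Cxcr5, the follicle homing receptor, read 510 to 1160 in Het against 256 to 729 in KO and overlapped between groups. Of 10 measured regulatory T cell genes 1 passed as higher, Il10 (log2 2.98, adjusted p = 0.0462), and 1 as lower, Nrp1 (log2 -0.99, adjusted p = 0.0191, limma). At an unadjusted p under 0.05, 3 of these genes were higher and 1 lower. Ctla4, an inhibitory receptor, gave log2 0.76 (adjusted p = 0.0686) and Il2ra, the interleukin 2 receptor alpha chain, 0.67 (adjusted p = 0.244), with no overlap of the groups for either. Foxp3 gave log2 -0.55 (adjusted p = 0.285) and Ikzf2, the gene of Helios, -0.24.

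Across the 12 lists 14 of 125 measured genes passed, 10 higher and 4 lower. With 1 array left out this was 0 to 3, and 0 without both B arrays (limma; 51 at an unadjusted p under 0.05).

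**Figure D4:**
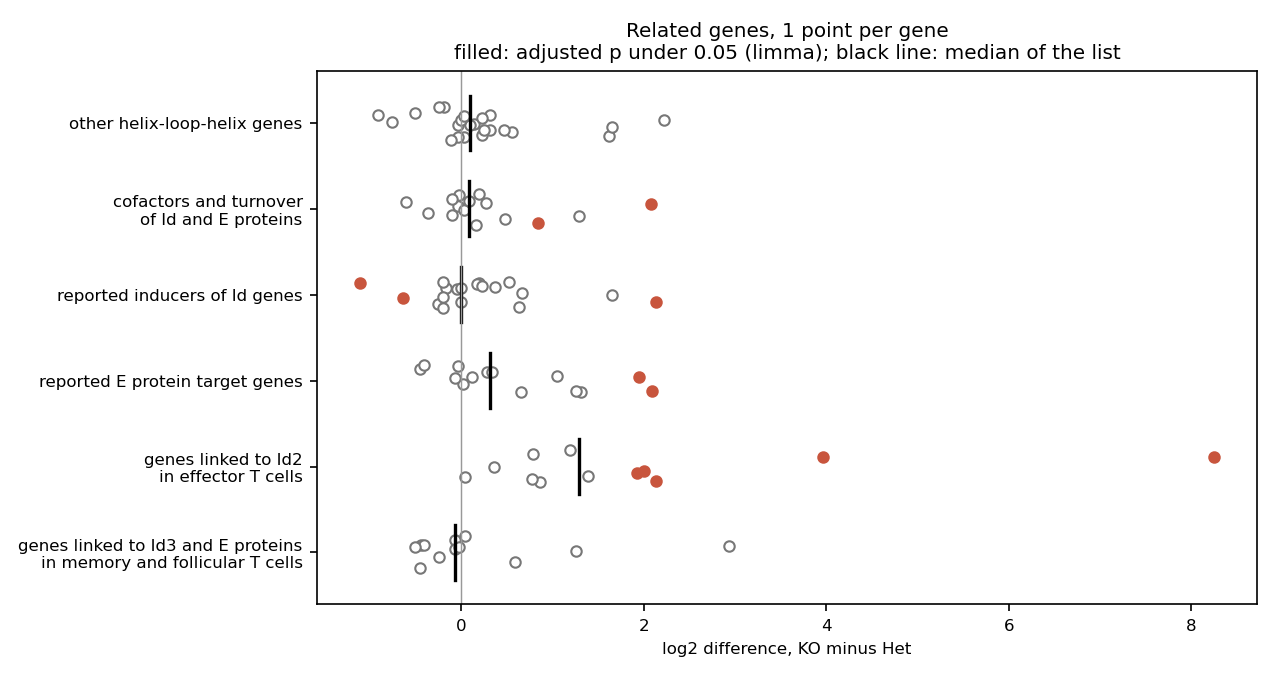
Log2 difference of KO minus Het (horizontal) for each measured gene of 6 lists of related genes (vertical; points are spread vertically for legibility), filled where limma's adjusted p is under 0.05, with the list median as a black line. Genes linked to Id2 lie to the right of 0 with a median of 1.29, while the medians of the other lists lie between -0.07 and 0.31.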

How the data were processed

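RNA was extracted with TRIzol, amplified with MessageAmp II and labelled with biotin, per the labels' protocols. The authors deposited intensities of probe sets after GCRMA, per the labels: a sequence-based background is removed, arrays are put on 1 scale and probes are combined. The version of that software is not stated in the labels. The values were read as linear because they run from 1.23 to 170023, and log2 was computed from them. Removing background drives dim probe sets to a floor, which can enlarge folds of genes that are dim in 1 group.

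Of 45101 probe sets, 64 controls and 1 row with missing values were set aside. The 29507 with log2 above 4 on at least 3 of 6 arrays were tested with limma 3.58.1 (R 4.3.3), using lmFit and eBayes, two-sided, without covariates, at a threshold of 0.05 after Benjamini-Hochberg adjustment. In the annotation 34958 probe sets had 1 symbol, 932 had several and 9211 are unnamed here. In lists a gene was represented by its probe set of highest mean. Tabulation used pandas 2.3.3 and plots matplotlib 3.10.9. The limma steps were tested on simulated data.

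The members and lists were chosen with earlier results of these data known. Named were all members, up to 4 genes past the threshold per list by smallest p (or the 2 of smallest p where 0 passed), and the 4 genes most correlated with Id2 and with Id3, passing over predicted genes and clone names. Other list genes, such as Zeb2, Id4 and Cdk6, were named after their values were seen. Alternatives covered a replicate block, no filter or a stricter one, normalization by quantiles or medians, other variance models, the mean over a gene's probe sets and leaving out each array. Leaving out both B arrays and the motifs beyond E-boxes were added after the data were seen. Protein sequences were not analysed here.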

Additional observations from a re-analysis of the deposited data

How the results depend on the processing

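The difference between the changes of Id2 and Id3 was log2 3.51. A replicate block, the filters on level, median centring and the robust variance model with an intensity trend cannot change it. It was 3.50 with quantile normalization and 3.55 with array weights or without both B arrays. With each array left out it stayed between 3.33 and 3.73. The calls did not: limma called 525 probe sets in all, 3 of the family and 14 genes of the lists, and with each array left out 0 to 176, 0 to 2 and 0 to 3. Without both B arrays 0, 0 and 0 were called (5274, 7 and 51 at an unadjusted p under 0.05). Array weights gave 957 probe sets, and no filter on level gave 8 list genes. The family's count was 2 with no filter and 4 with array weights. It stayed at 3 under the remaining settings other than the replicate block, which is given below. Whether the shared letters pair the arrays could not be decided. Deviations from the group means correlated at 0.283 for A, -0.171 for B and 0.0118 for C. Arrays of unlike letters gave -0.451 to 0.374. Within a group of 3 arrays these deviations sum to 0, so their correlations cannot settle it. With the letter as a replicate block the counts were 0, 0 and 0 (limma; 5365, 8 and 51 at an unadjusted p under 0.05).

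Among the family's probe sets, signs turned for Tcf3 and Tcf12 probe sets that had not passed. With each array left out, Tcf3 1426297_at ran from log2 -0.34 to 0.23 (above 0 without Het C or KO A), 1427764_a_at from -0.20 to 0.31 (below 0 without Het B or KO B) and 1452542_x_at from -0.44 to 0.20 (above 0 without Het C, KO A or KO C). Tcf12 1439209_at ran from -0.12 to 0.07 (above 0 without Het C or KO A) and 1439619_at from -0.32 to 0.01 (above 0 without KO B). Tcf3 1427764_a_at was also below 0 with array weights (-0.03) and without both B arrays (-0.28). Medians of 5 lists also changed sign: with each array left out those of CD8 T cell markers reached -0.77 and of NK and innate lymphoid cell markers -0.28 (both without KO B; 0.14 and 0.30 with all arrays), of B cell markers -0.12, of plasmacytoid dendritic cell markers 0.06 and of Id inducers -0.04. The cause was not tested. Quantile normalization and median centring moved the median of all probe sets by 0.00399 and 0.0186. Id1, 1 Tcf4 probe set and Id4 lay too close to the floor to be compared.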
